A study of Mus musculus with 18 samples.

Results

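The MEF2 transcription factor genes (Mef2a, Mef2b, Mef2c and Mef2d) and the class IIa histone deacetylase genes (Hdac4, Hdac5, Hdac7 and Hdac9) were followed through RNA sequencing of mouse regulatory T cells (Treg), the Foxp3-expressing CD4+ cells that restrain other immune cells. These 8 genes were taken by symbol from a table of 35275 Ensembl identifiers, and each matched 1 identifier. The cells came from male mice aged 6 to 8 weeks, were enriched on a CD4 column and were sorted on the yellow fluorescent protein of the Foxp3-YFP-cre allele. All 6 groups of 3 libraries carried that allele, which drives cre from Foxp3 and so in Foxp3+ cells. The wild-type group carried it alone. The other 5 groups also carried floxed alleles of Dyrk1, HDAC1, HDAC2, Mef2c or Mef2d, and are called by those labels. The series text calls the replicates independent and biological, and does not say whether animals were pooled.

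MEF2 proteins bind DNA as dimers and can hold a target gene off or turn it on. In the off state they carry a class IIa deacetylase, which has little catalytic activity of its own and brings in the NCoR/SMRT complex with Hdac3. Calcium-dependent and related kinases phosphorylate the class IIa deacetylases, 14-3-3 proteins then bind and retain them in the cytoplasm, and MEF2 is free to recruit coactivators such as Ep300. In T cells, Mef2d and Hdac7 are known from work on Nr4a1 and cell death in the thymus, and Hdac9 is known as a restraint on Treg number and function.

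Because MEF2 factors are themselves among the genes studied, the start sites of all 8 were searched for a loose form of the MEF2-type motif. The form used was CTA followed by 4 bases of any kind and TAG, a pattern that is its own reverse complement. RefSeq start-site windows of 300 bases (build GRCm38.p6) were found for 8 of 8 genes, 14 windows in all. The motif was present in 1 window each of Mef2a, Hdac5 and Hdac9, and in 3.69% of the 32851 windows of all genes. The stretches that hold it are shown because these genes differ in how their RNA varied over the groups, with the motif in capitals:

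Mef2a, chr7:67372851-67372958, minus strand: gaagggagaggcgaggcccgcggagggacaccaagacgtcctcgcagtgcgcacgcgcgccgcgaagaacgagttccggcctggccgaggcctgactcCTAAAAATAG

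Hdac5, chr11:102230173-102230272, minus strand: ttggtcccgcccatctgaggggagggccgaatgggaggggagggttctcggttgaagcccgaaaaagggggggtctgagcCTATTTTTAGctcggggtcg

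Hdac9, chr12:34528890-34528989, minus strand: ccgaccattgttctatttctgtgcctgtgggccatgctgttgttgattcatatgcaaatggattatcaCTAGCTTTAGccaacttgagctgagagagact

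The Mef2a match spans the annotated start, the Hdac5 match lies 20 to 11 bases before it, and the Hdac9 match lies 32 to 23 bases before the start of 1 of its 2 windows. A match describes the letters in the window and is not a measured binding site.

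Levels are in FPKM, which divides fragments by the length of the gene and the size of the library, so they can be compared between genes. Recovered depth was 15.9 M to 24.1 M reads per library. Foxp3, which defines the sorted cells, was at 82.5 to 117.7 FPKM, and all 7 Treg marker genes were above 0 in every library. The summed level of 10 B cell marker genes was 29.3 to 48.8 FPKM in wild-type libraries and reached 406 FPKM in Dyrk1 replicate 1, 182.7 in Mef2d replicate 1 and 129.7 in Mef2c replicate 1. These 3 libraries are called B cell rich below. Dyrk1 replicate 1 was also the highest of its group for macrophage and monocyte (141.4 FPKM), CD8 T and NK cell (93.8) and dendritic cell (17.9) markers. The mean level of the B cell list in the 3 libraries, on the log2(FPKM + 1) scale, was more than 1 above the median library. Plasma cell markers summed to 1979 to 6046 FPKM with the HDAC1 label and 3392 to 10562 with the HDAC2 label, against 489 to 1578 in wild type. Erythroid markers summed to 25.5 to 388 FPKM in wild type, 91.3 to 261 with HDAC1 and 43.5 to 304 with HDAC2. They summed to 6.55 to 41.6 FPKM with Dyrk1, 15.1 to 52.4 with Mef2c and 13.2 to 55.5 with Mef2d, ranges that overlapped wild type. Dendritic cell markers summed to 6.85 to 9.30 FPKM in wild type. They were higher in every library labelled Dyrk1 (10.7 to 17.9), Mef2c (11.4 to 13.9) or Mef2d (10.4 to 13.1). The HDAC1 (8.87 to 15.4) and HDAC2 (8.21 to 13.8) ranges overlapped wild type. Gamma-delta T cell markers were at 33.6 to 53.6 in wild type, 55.3 to 73.2 with HDAC1 and 18.4 to 26.1 with Mef2d. Germinal centre B cell markers were at 5.69 to 6.67 in wild type and 9.30 to 11.3 with Dyrk1. In sorted bulk RNA, fewer cells of a type and less RNA per cell cannot be told apart.

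The targeted genes were examined first. Hdac1 was at 27.8 to 36.5 FPKM in libraries labelled HDAC1 and at 116.5 to 122.4 in wild type. No other label came with a lower level of its gene beyond the spread of wild type. Mef2d was at 53.4, 53.9 and 52.8 FPKM in the 3 libraries labelled Mef2d, and at 40.9, 46.6 and 37.5 in wild type. Every library labelled Mef2d therefore held more Mef2d RNA than every wild-type library. Mef2c was at 1.95, 0.903 and 0.945 FPKM in libraries labelled Mef2c and at 0.302, 0.571 and 0.554 in wild type, again with the labelled libraries all higher. Hdac2 was at 27.1 to 28.9 FPKM with the HDAC2 label and 27.7 to 28.7 in wild type, so these overlapped. The label Dyrk1 does not name which of Dyrk1a and Dyrk1b was floxed. Dyrk1a was at 30.8 to 35.9 FPKM with that label and 26.0 to 28.6 in wild type, and Dyrk1b at 11.0 to 12.6 and 6.73 to 7.54. A gene-level value counts reads from all exons, so it does not show whether a floxed exon was missing, and directions below are those of the libraries labelled Mef2c, Mef2d, HDAC2 or Dyrk1. The growth protocol also speaks of an Rcor1 knockout, which no label carries, and Rcor1 ranged from 15.2 to 16.1 FPKM in the wild-type libraries and from 17.0 to 19.8 elsewhere.

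Mef2d and Hdac7 made up most of the RNA of their families. Mef2d was 75.3% ± 3.09 (SD, n = 18) of the summed FPKM of the 4 MEF2 genes, Mef2a 22.3% ± 1.79, Mef2c 2.35% ± 2.75 and Mef2b 0.104% ± 0.115. Of the class IIa sum, Hdac7 was 80.5% ± 1.72 (SD, n = 18), Hdac5 11.7% ± 1.31, Hdac4 6.47% ± 1.00 and Hdac9 1.25% ± 0.539. By group mean, the order of the 4 genes within each family was the same in all 6 groups. Both family sums were highest with the Mef2d label. The MEF2 sum was 70.5 ± 1.82 FPKM (SD, n = 3) there and 54.3 ± 5.76 in wild type, and the class IIa sum was 111.3 ± 1.22 against 101.1 ± 4.39. The 3 libraries labelled Mef2d held sums above those of all 15 other libraries for both families. No test was made on these sums.

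**Figure D1:**
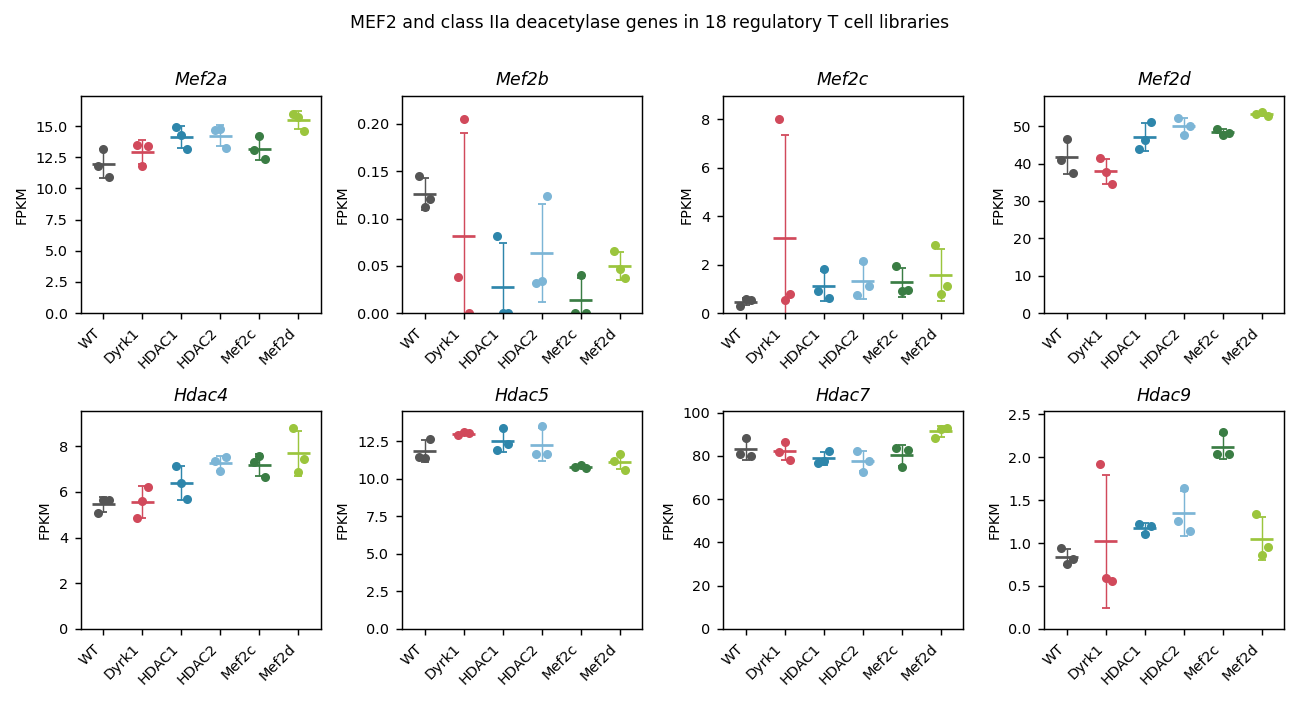
FPKM of each of the 8 genes in the 6 groups, with 1 point per library, a bar at the group mean and whiskers of 1 SD (n = 3, whiskers below 0 not drawn). Mef2d is lowest with the Dyrk1 label and highest with the Mef2d label, Hdac9 is highest with the Mef2c label, and Mef2c has a single high library, Dyrk1 replicate 1 at 8.02 FPKM.

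Of the 8 genes, 7 passed the filter of at least 1 FPKM in at least 3 libraries and were tested with limma among 12223 genes. Mef2b did not. Over all 6 groups, limma's F test called 5 of the 7 (adjusted p under 0.05), Mef2d, Hdac4, Mef2a, Hdac9 and Hdac5, against 38.6% of all genes tested. Hdac7 (adjusted p 0.0624 by the F test in limma) and Mef2c (0.629) were not called. The F test call count fell to 3 with the B cell rich libraries left out and to 3 after length and GC trends were removed.

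Mef2d (ENSMUSG00000001419, chromosome 3, 88142372 to 88172086, mm10, plus strand) is the main MEF2 gene of these cells and showed the clearest ordering of groups. It was at 41.5, 37.7 and 34.7 FPKM with the Dyrk1 label and at 40.9, 46.6 and 37.5 in wild type. It was at 43.9, 46.2 and 51.1 FPKM with the HDAC1 label, 52.2, 47.6 and 50.01 with HDAC2 and 49.3, 47.6 and 48.3 with Mef2c. The 3 libraries labelled Mef2d, at 52.8 to 53.9 FPKM, lay above all other libraries, and the 3 labelled Dyrk1 lay below all 12 of the libraries labelled HDAC1, HDAC2, Mef2c or Mef2d. Neighbouring groups between those ends overlapped, wild type with Dyrk1 and with HDAC1 among them. Against wild type, Mef2d rose by 0.35 on the log2(FPKM + 1) scale with the Mef2d label (SE 0.08, limma adjusted p 0.00718), from 41.7 ± 4.59 to 53.4 ± 0.561 FPKM (SD, n = 3). It also passed with the HDAC2 label (0.26, SE 0.08, limma adjusted p 0.0275), a call lost in 7 of 16 alternative settings, and not with the Mef2c label (0.22, 0.0693), the HDAC1 label (0.17, 0.160) or the Dyrk1 label (-0.13, 0.272).

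Mef2a (ENSMUSG00000030557, chromosome 7, 67231163 to 67372858, minus strand) encodes the other MEF2 factor with an appreciable level. It was at 11.8, 13.2 and 10.9 FPKM in wild type and at 16.0, 15.8 and 14.7 with the Mef2d label. With the HDAC2 label it was at 14.7, 14.8 and 13.3 FPKM, and with the HDAC1 label at 14.98, 14.3 and 13.2. The Mef2c label gave 13.1, 14.2 and 12.4 FPKM and the Dyrk1 label 13.5, 11.8 and 13.4. The libraries labelled Mef2d and HDAC2 lay above every wild-type library, and each group overlapped its neighbour in the order of means. Mef2a rose with the Mef2d label (log2 0.35, SE 0.08, limma adjusted p 0.00814) and the HDAC2 label (0.23, SE 0.08, 0.0426). The second call was lost in 8 of 16 alternative settings and reversed in 1, and the first did not survive correction for length and GC (0.10, adjusted p 0.325).

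Mef2c (ENSMUSG00000005583, chromosome 13, 83504034 to 83667080, plus strand), a MEF2 gene used in B cell and myeloid development, was weakly read, at 40 to 1003 reads per library. It was at 8.02, 0.536 and 0.795 FPKM with the Dyrk1 label. It was at 0.903, 1.84 and 0.626 FPKM with HDAC1, 0.735, 2.16 and 1.11 with HDAC2, and 2.81, 0.772 and 1.12 with Mef2d. All 3 wild-type libraries were below all libraries labelled HDAC1, HDAC2, Mef2c or Mef2d, and the Dyrk1 group overlapped wild type. None of the 7 contrasts called Mef2c, the log2 differences from wild type being 0.49 to 0.99 with an SE of 0.51. The 3 libraries richest in B cell markers held the highest Mef2c level of their own groups. Across the 18 libraries, Pearson's r between Mef2c and the mean of the B cell list was 0.917, and 0.625 over the 15 libraries without those 3. With the dendritic cell list it was 0.865 and 0.671, with CD8 T and NK cell markers 0.724 and 0.572, and with macrophage and monocyte markers 0.663 and 0.487. Other lists were less even, at 0.693 and 0.0155 with germinal centre B cell markers and 0.201 and 0.648 with plasma cell markers. Erythroid markers gave -0.180 and 0.442, gamma-delta T cell markers -0.196 and 0.165, and Treg markers -0.217 and -0.318. These libraries share groups and sorts, and the part of other cells in the level of Mef2c was not tested.

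Mef2b (ENSMUSG00000079033, chromosome 8, 70139711 to 70167488, plus strand) was at 0 in 5 libraries and at most 0.205 FPKM, or 6 reads, in the others. All 3 wild-type libraries had 3 or 4 reads, and the libraries labelled Mef2c had 0, 1 and 0. The wild-type libraries did not overlap those labelled HDAC1, Mef2c or Mef2d, but with at most 6 reads per library Mef2b was not tested.

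**Figure D2:**
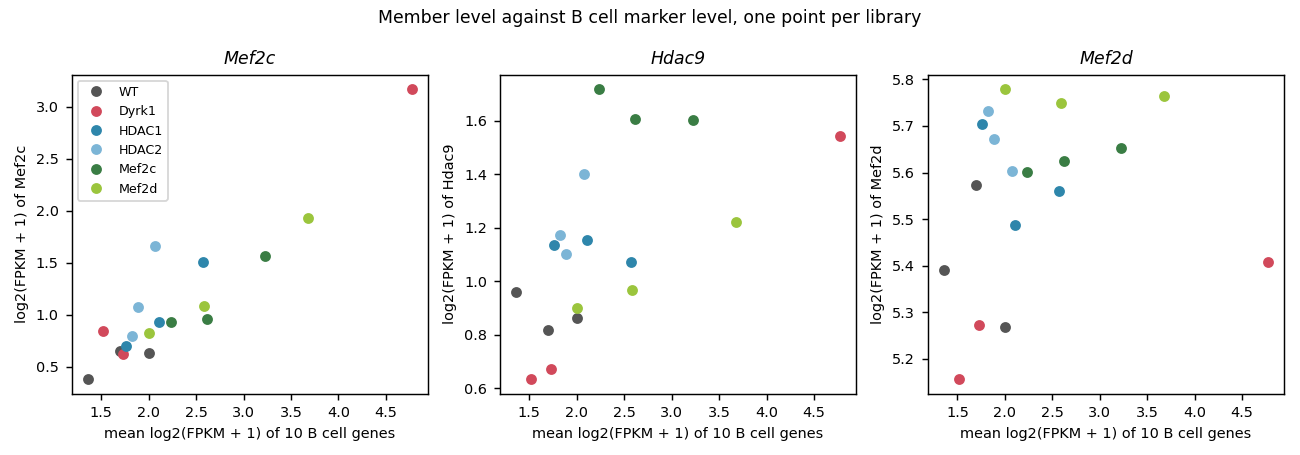
Level of Mef2c, Hdac9 and Mef2d (y axis) against the mean level of 10 B cell genes (x axis), both as log2(FPKM + 1), with 1 point per library coloured by group. Mef2c has r 0.917 over 18 libraries and 0.625 over the 15 that are not B cell rich. The 3 libraries labelled Mef2c are highest in Hdac9. Their B cell levels are 2.24 to 3.23, above the 1.36 to 2.01 of wild type, and replicate 1 is B cell rich. Mef2d has r 0.191 (0.442 over the 15 libraries that are not B cell rich).

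Among the class IIa deacetylases, Hdac9 (ENSMUSG00000004698, chromosome 12, 34047580 to 34917095, minus strand) was the one that separated the libraries labelled Mef2c. It was at 2.04, 2.29 and 2.04 FPKM there, from 180 to 186 reads, and at 0.943, 0.762 and 0.817 in wild type, from 67 to 86 reads. It was at 1.33, 0.867 and 0.955 FPKM with the Mef2d label, 1.25, 1.64 and 1.15 with HDAC2 and 1.23, 1.11 and 1.20 with HDAC1. The Dyrk1 label gave 1.92 FPKM in replicate 1 and 0.592 and 0.553 in the others. All 3 libraries labelled Mef2c were above the 15 others. Hdac9 rose by 0.76 on the log2(FPKM + 1) scale against wild type (SE 0.18, limma adjusted p 0.0108), a scale that understates the change of a gene this low. The call held in all 15 alternatives in which the gene was tested, at 0.60 to 1.24. Pearson's r of Hdac9 with the B cell list was 0.578 over 18 libraries and 0.534 over the 15 that are not B cell rich. With the dendritic cell list it was 0.514 and 0.319. The other lists gave -0.174 to 0.171 over 18 libraries and -0.420 to 0.124 over the 15. The B cell list summed to 62.4 to 129.7 FPKM with the Mef2c label and 29.3 to 48.8 in wild type. With the B cell rich libraries left out, Hdac9 of the Mef2c label passed against wild type (0.78, limma adjusted p 0.000556). The Mef2c libraries that remain there have a mean log2(FPKM + 1) of the B cell list of at least 2.24. Wild type is at 1.36 to 2.01, so this setting does not remove the difference in B cell markers. The part of other cells in the level of Hdac9 was not tested.

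Hdac4 (ENSMUSG00000026313, chromosome 1, 91928779 to 92195699, minus strand) rose with 3 labels. It was at 5.07, 5.64 and 5.65 FPKM in wild type and 4.84, 5.62 and 6.23 with the Dyrk1 label. It was at 7.35, 6.90 and 7.52 FPKM with HDAC2, 7.32, 7.56 and 6.66 with Mef2c, 8.79, 6.86 and 7.44 with Mef2d, and 7.15, 6.39 and 5.67 with HDAC1. The HDAC2, Mef2c and Mef2d libraries were all above the wild-type and Dyrk1 libraries, and the HDAC1 libraries overlapped the Dyrk1 ones. Against wild type the log2 differences were 0.36 with HDAC2 (SE 0.10, limma adjusted p 0.0176), 0.34 with Mef2c (0.0251) and 0.43 with Mef2d (0.00852), and they did not pass with HDAC1 (0.20, 0.201) or Dyrk1 (0.02, 0.911).

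Hdac5 (ENSMUSG00000008855, chromosome 11, 102194432 to 102230166, minus strand) and Hdac7 (ENSMUSG00000022475, chromosome 15, 97792664 to 97844502, minus strand) passed in none of the 7 contrasts. Hdac5 was at 12.9, 13.1 and 13.0 FPKM with the Dyrk1 label and at 10.8, 10.9 and 10.7 with the Mef2c label, which did not overlap. Wild type was between them at 11.4, 11.4 and 12.7, HDAC1 at 11.9, 13.4 and 12.3, HDAC2 at 11.6, 13.5 and 11.6 and Mef2d at 11.2, 11.6 and 10.6. Hdac7 was at 80.7, 88.4 and 80.0 FPKM in wild type, 81.8, 86.4 and 78.2 with Dyrk1 and 76.7, 77.7 and 82.3 with HDAC1. It was at 82.1, 72.8 and 77.5 FPKM with HDAC2, 83.6, 74.7 and 82.7 with Mef2c and 88.5, 92.6 and 93.0 with Mef2d. The libraries labelled Mef2d were above all others for Hdac7, and the other groups overlapped. Over the 7 contrasts, the largest Hdac5 difference being 0.15 (Dyrk1 against the 4 other labelled groups, limma adjusted p 0.0538) and the largest Hdac7 difference -0.18 (Mef2c against Mef2d, 0.170). That Hdac5 difference passed under RLE scaling (0.18, adjusted p 0.0324), with length and GC trends removed (0.18, 0.0282), without HDAC1 replicate 2 (0.0410) and without HDAC2 replicate 2 (0.0208).

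Counted by comparison, the libraries labelled HDAC2 had 3 of the 7 tested genes higher than wild type and 0 lower, Mef2d 3 and 0, and Mef2c 2 and 0. Of all genes tested, 16.1%, 13.9% and 12.9% were called higher in those comparisons, 9.41%, 7.95% and 6.06% lower, and 25.6%, 21.9% and 19.0% in either direction. With the HDAC1 and Dyrk1 labels 0 of 7 were called, by limma with Benjamini-Hochberg adjustment, against 12.5% of all genes with HDAC1 (10.2% higher, 2.32% lower) and 17.3% with Dyrk1 (11.1% higher, 6.19% lower). At an unadjusted p under 0.05 the counts were 2 of 7 (Mef2a and Mef2d) with HDAC1 and 0 of 7 with Dyrk1. The shares of all genes at that unadjusted threshold were not computed, so these counts cannot be set against the shares above. All 5 comparisons use the same 3 wild-type libraries, so their differences are not independent. The 3 HDAC2 calls became 0 without wild-type replicate 1 or without HDAC2 replicate 1, and 1 without wild-type replicate 3 or HDAC2 replicate 3. The 2 Mef2c calls fell to 1 (Hdac9) without wild-type replicate 1 or 3 or without Mef2c replicate 1 or 2.

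**Figure D3:**
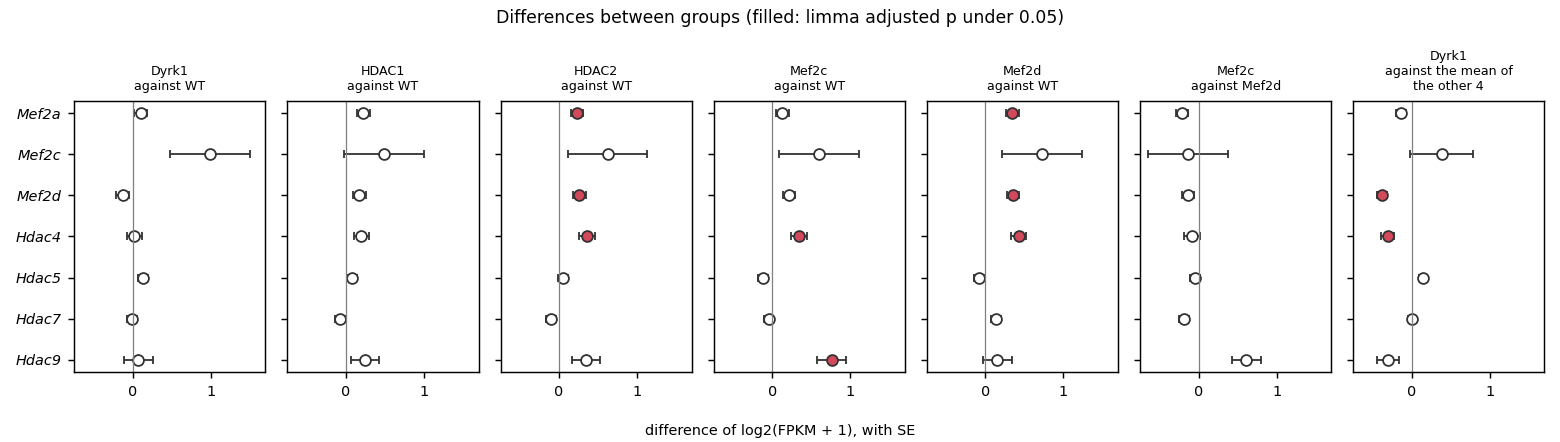
Log2 difference of log2(FPKM + 1) for the 7 tested genes (rows) in 7 comparisons (panels), with the SE of the limma fit, filled where the adjusted p is under 0.05. Filled points are on the higher side with the HDAC2, Mef2c and Mef2d labels, and on the lower side, for Mef2d and Hdac4, in Dyrk1 against the mean of the other 4 groups.

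Set directly against each other, libraries labelled Mef2c and Mef2d differed for 0 of 7 genes, by limma with an adjusted p under 0.05. Of all genes, 3.06% were called there (1.60% higher, 1.46% lower). At an unadjusted p under 0.05 the count was 3 (Hdac9, Hdac7 and Mef2a). The share of all genes at that threshold was not computed, so the 3 cannot be set against 3.06%. Hdac9 was 0.61 higher with the Mef2c label (SE 0.18, limma adjusted p 0.104). With the B cell rich libraries left out that difference was 0.73 and passed (adjusted p 0.00417). Hdac7 was 0.18 lower with the Mef2c label (difference -0.18, adjusted p 0.170) and Mef2a 0.22 lower (-0.22, 0.223).

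The Dyrk1 label was set against the mean of the groups labelled HDAC1, HDAC2, Mef2c and Mef2d, with no wild-type library in the contrast, because Mef2d was known to be lowest with that label. Its p for Mef2d is therefore a description. In this contrast 2 of 7 genes were lower and 0 higher, and of all genes 12.4% were called lower and 9.55% higher (21.9% in either direction). Since Mef2d prompted the contrast, nothing is read from that count. Mef2d was 0.38 lower (difference -0.38, SE 0.06, limma adjusted p 0.000477), and -0.45 to -0.32 over the 25 alternatives. Those alternatives refit the data that prompted the contrast, so they describe the Mef2d difference and add no support to it. Hdac4 was 0.31 lower (difference -0.31, SE 0.08, adjusted p 0.0100), a call lost with the B cell rich libraries left out (-0.20, 0.106) and without Dyrk1 replicate 1 (-0.23, 0.0781). Hdac9 did not pass (-0.30, 0.153) but passed without Dyrk1 replicate 1 (-0.60, 0.000712), the library with the highest level of B cell markers.

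Long genes were higher with every label, and this touches some members. Mef2a, Mef2c, Hdac4 and Hdac9 have exon unions of 14.7 to 15.8 kb, in a class over 10 kb whose median difference from wild type was 0.16 to 0.22 with the 5 labels, against -0.07 to -0.01 for genes under 2 kb. In that class, 25.8% to 42.5% of genes were called higher. The classes and the trend removal use the exon union. The smallest lengths that returned whole reads from the deposited values of Mef2a, Mef2c, Hdac4 and Hdac9 were shorter, at 4422 to 8100 bases. With length and GC trends removed, the HDAC2 comparison called none of its 3 genes and instead called Hdac7 lower (-0.21, adjusted p 0.0302). The Mef2d comparison then kept Mef2d (0.30) and lost Hdac4 and Mef2a, and the Mef2c comparison kept Hdac9 (0.60) and lost Hdac4. The part of length-linked effects in the remaining calls was not tested. With median-of-ratios (RLE) scaling, 1410 genes rose and 1623 fell with HDAC2, against 1973 and 1150 with the scaling as deposited. The same change gave 762 and 716 against 1250 and 283 with HDAC1, 1074 and 1102 against 1581 and 741 with Mef2c, and 1222 and 1345 against 1705 and 972 with Mef2d. The Dyrk1 comparison had 1087 and 917 against 1359 and 757, and 887 and 881 after trend removal. The member calls under these scalings were 1 (Hdac4) with HDAC2, 1 (Hdac9) with Mef2c and 3 with Mef2d under RLE.

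**Figure D4:**
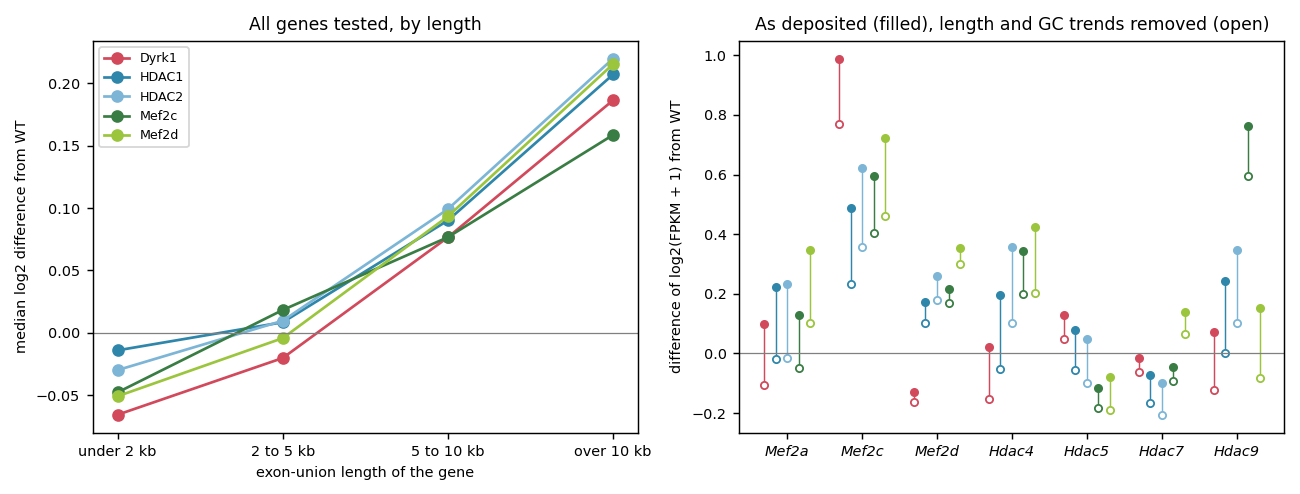
Left, median log2 difference from wild type over all genes tested, in 4 classes of exon-union length (kb), with 1 line per label. Right, the difference of each member from wild type as deposited (filled) and with length and GC trends removed (open), with 1 line joining each pair. Long genes sit higher with every label, and the open points of Mef2a, Hdac4 and Hdac9 lie nearer 0 or below.

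Other genes of the pathway were taken from lists. Of all genes tested, 11.1% were called higher and 6.19% lower with the Dyrk1 label, 10.2% and 2.32% with HDAC1, 16.1% and 9.41% with HDAC2, 12.9% and 6.06% with Mef2c, and 13.9% and 7.95% with Mef2d, and the list counts are read against these. Of the 14 tested kinases that phosphorylate class IIa deacetylases or activate those that do (calcium/calmodulin kinases, protein kinase D, SIK and MARK families and Stk11), 2 rose and 1 fell with the Dyrk1 label, 4 and 0 with HDAC1, 3 and 1 with HDAC2, 2 and 1 with Mef2c and 4 and 1 with Mef2d. Several of these calls were lost in many alternatives, among them Camk4 with HDAC1 (14 of 16), Camk1d with Mef2c (10 of 16) and Mef2d (11 of 16), Sik2 with HDAC1 and with HDAC2 (8 of 16 each), Stk11 with HDAC2 (8 of 16) and Camk2a with Dyrk1 (8 of 15). Camk2b, a calmodulin kinase II subunit, had the largest differences. It was at 3.13, 2.83 and 3.41 FPKM in wild type, 4.78, 6.02 and 7.94 with Dyrk1, 0.811, 1.15 and 0.876 with Mef2c and 0.849, 1.71 and 1.13 with Mef2d. Camk2b therefore did not overlap wild type with any of these 3 labels, at log2 0.79 with Dyrk1 (limma adjusted p 0.00512), -1.08 with Mef2c (0.000308) and -0.90 with Mef2d (0.00180). The Dyrk1 call was lost in a fit of the 6 libraries alone (adjusted p 0.0986). Camk2a, another subunit gene of that kinase, fell with Dyrk1 (-0.49, limma adjusted p 0.0422) and rose with Mef2d (0.57, 0.0188). Its level was low, at 1.15, 1.12 and 1.11 FPKM in wild type, 0.610, 0.333 and 0.612 with Dyrk1 and 1.59, 3.43 and 1.76 with Mef2d. The Mef2d call was lost in 3 of 15 alternatives, among them without Mef2d replicate 2 (0.33, limma adjusted p 0.0537).

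Camk4, a kinase of T cell signalling, separated the MEF2 labels. It was at 8.70, 8.64 and 8.11 FPKM with the Mef2c label and 12.7, 14.6 and 13.0 with the Mef2d label, with no overlap, and the difference was -0.61 (SE 0.10, limma adjusted p 0.00317), kept in 16 of 16 alternatives. Camk2g was at 13.2, 16.0 and 13.96 FPKM in wild type and 19.2, 18.9 and 20.6 with the Mef2c label (0.42, adjusted p 0.00273), and rose also with Mef2d (0.39, 0.00468) and HDAC1 (0.37, 0.0117). Prkd2, a protein kinase D gene, was at 68.8 to 83.4 FPKM in all libraries and was not called in any comparison with wild type.

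Of the 8 tested genes of the NCoR/SMRT and Hdac3 complex and its partners, 3 rose with Dyrk1, 1 with HDAC1, 2 with HDAC2, 0 with Mef2c and 2 with Mef2d, and none fell, against 10.2% to 16.1% of all genes called higher. Ncor1, the scaffold of the complex, was at 42.8, 42.0 and 35.9 FPKM in wild type and 57.9, 53.2 and 52.2 with the HDAC1 label (0.43, limma adjusted p 0.0140). That Ncor1 call was lost without wild-type replicate 3 (adjusted p 0.0773) or HDAC1 replicate 1 (0.0645), and the difference was 0.22 with length and GC trends removed. Of the 7 14-3-3 genes, 1 fell with HDAC1, 3 with HDAC2, 2 with Mef2c and 1 with Mef2d, none rose against wild type, and 0 were called with Dyrk1, against 2.32% to 9.41% of all genes called lower. With HDAC2, the Ywhae call was lost in 6 and the Ywhaq call in 7 of 16 alternatives. Ywhah was at 131.8, 118.7 and 138.6 FPKM in wild type and 101.6, 106.3 and 103.2 with Mef2c (-0.32, adjusted p 0.00525), and fell with HDAC2 (-0.35) and Mef2d (-0.30) as well. The HDAC1 call was Sfn, at 28.9, 30.8 and 29.96 FPKM in wild type and 8.39, 9.44 and 8.08 with HDAC1 (-1.68, adjusted p 1.43e-09). Sfn fell with the Mef2c label too, to 20.8, 22.1 and 24.8 FPKM (-0.39, adjusted p 0.00166), a call kept in 16 of 16 alternatives. Sfn lies on chromosome 4 at 133600556 to 133602168, the chromosome of the targeted Hdac1 (129516104 to 129542713). The part of that position in the fall of Sfn with HDAC1 was not tested.

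Of the 14 MEF2 activators and coactivators, 2 rose and 2 fell with Dyrk1, 1 and 0 with HDAC1, 2 and 1 with HDAC2, 1 and 2 with Mef2c and 2 and 0 with Mef2d, where 10.2% to 16.1% of all genes were called higher and 2.32% to 9.41% lower. Ep300, a coactivator that acetylates histones at MEF2 targets, rose with all 5 labels, from 21.0, 21.1 and 18.3 FPKM in wild type to 30.8, 29.1 and 26.7 with the Mef2d label (0.50, limma adjusted p 0.00513). The Ep300 call with the Mef2d label was kept in 16 of 16 alternatives. The call with Dyrk1 was lost in the fit of only the groups compared (adjusted p 0.102), those with HDAC1 and HDAC2 were each lost in 3 of 16, and that with Mef2c in 6 of 16. With length and GC trends removed, the Ep300 difference was 0.20 with HDAC1 and 0.16 with HDAC2. Genes of the list that fell were Kat2a (-0.34, limma adjusted p 0.00440), an acetyltransferase, and Map2k6 (-0.37, 0.0230) with Dyrk1. Both calls were lost in the fit of only the groups compared (limma adjusted p 0.114 and 0.167). The Map2k6 call was also lost without wild-type replicate 2 or Dyrk1 replicate 2. Map2k3, like Map2k6 a kinase that activates p38, fell with HDAC2 (-0.44, 0.00555) and Mef2c (-0.39, 0.0105). Mapk11, a p38 kinase, fell with Mef2c (-0.38, 0.0408), a call lost in 7 of 16 alternatives.

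Of 10 other histone deacetylases, 1 rose with Dyrk1, 2 rose and 1 fell with HDAC1, 2 rose with HDAC2, and 1 rose with each of Mef2c and Mef2d, beside the all-gene shares given above. Sirt1 rose with all 5 labels (0.42 to 0.48), and its Dyrk1 call was lost in the fit of only the groups compared (adjusted p 0.138). Hdac11 rose with HDAC1 (0.38, limma adjusted p 0.0371, lost in 9 of 15 alternatives) and HDAC2 (0.40, 0.0191), and the gene that fell with HDAC1 was the targeted Hdac1.

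Of 11 tested target genes of the pathway, none passed as higher than wild type with any label, and 1 fell with Dyrk1, 1 with HDAC1, 0 with HDAC2, 2 with Mef2c and 1 with Mef2d, against 2.32% to 9.41% of all genes called lower. The HDAC1 call was Klf2 (-0.43, limma adjusted p 0.0496), lost in 10 of 16 alternatives. The Mef2d call was Rhob (-0.59, 0.0362), lost in 8 of 16. Klf2, a transcription factor gene of quiescent T cells, was at 226.0, 255.2 and 235.8 FPKM in wild type and 144.7, 147.0 and 170.9 with the Mef2c label, a fall that did not overlap (-0.63, SE 0.13, limma adjusted p 0.00532). Klf4 was at 5.49, 7.95 and 6.98 FPKM in wild type and 3.73, 3.96 and 2.10 with the Dyrk1 label (-0.89, adjusted p 0.0112), a call lost in the fit of only the groups compared (adjusted p 0.109). Nr4a1, an early response gene under MEF2 control, was at 74.998, 60.6 and 71.5 FPKM with the Mef2c label and 100.7, 148.2 and 146.9 with the Mef2d label (-0.91, SE 0.23, adjusted p 0.0491). With the replicate number as a block the Nr4a1 call was lost (limma adjusted p 0.0644), as it was in 12 of 16 alternatives in all.

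**Figure D5:**
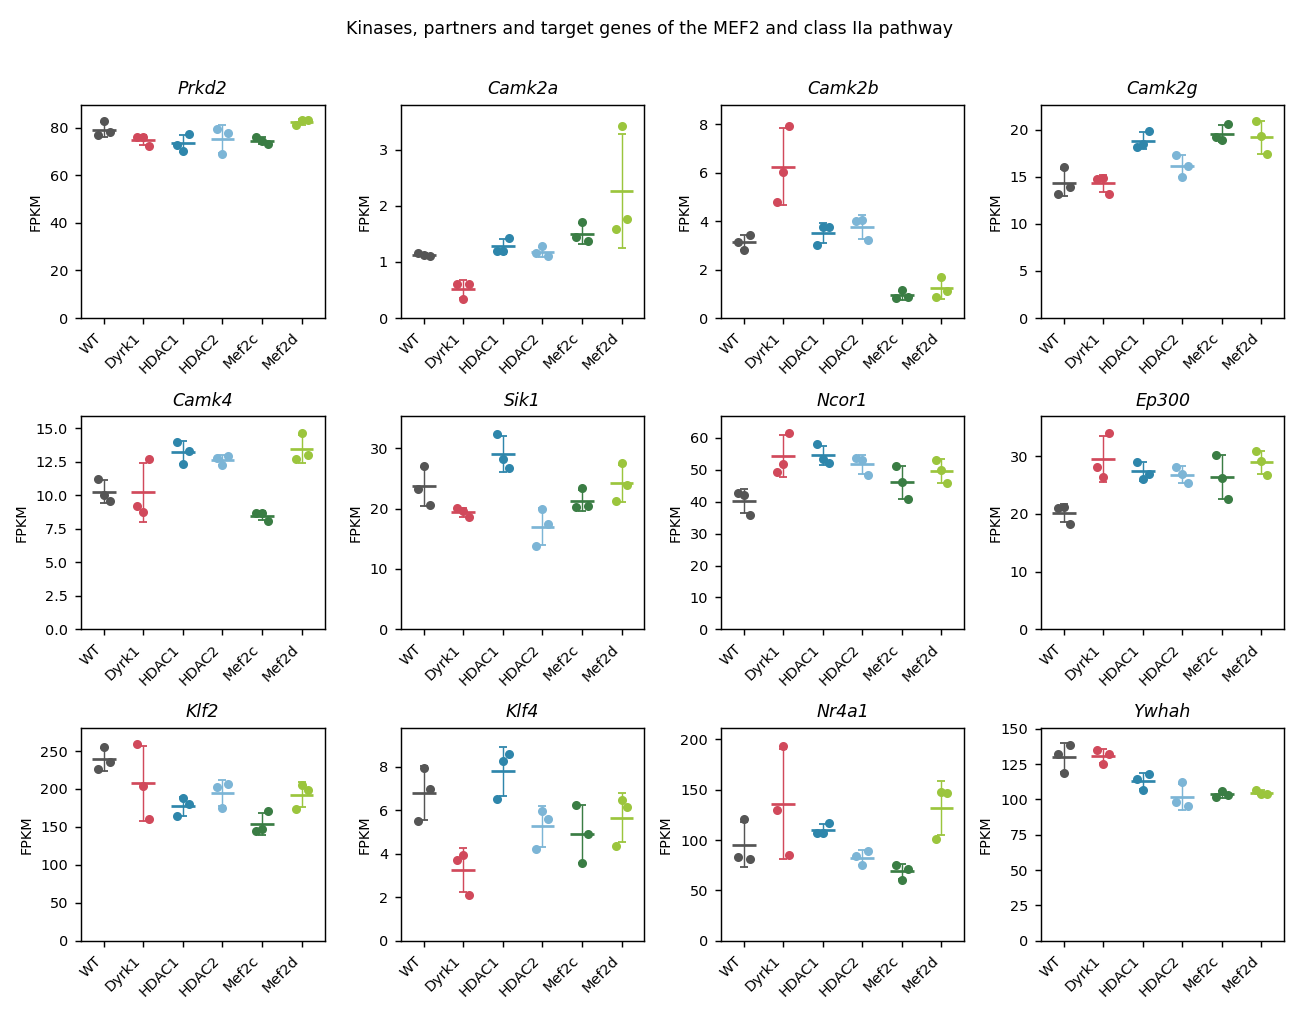
FPKM of 12 kinases, partners and target genes in the 6 groups, with 1 point per library, a bar at the mean and whiskers of 1 SD (n = 3). Camk2b is lowest with the Mef2c and Mef2d labels and highest with Dyrk1. Camk4 is low with the Mef2c label and higher with Mef2d, HDAC1 and HDAC2.

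The median log2 difference of all genes tested was 0.02 with Dyrk1, 0.05 with HDAC1, 0.05 with HDAC2, 0.04 with Mef2c and 0.04 with Mef2d. The median of the 7 members was 0.07, 0.20, 0.26, 0.22 and 0.35 in the same order. By exon union, 4 of the 7 belong to the class over 10 kb, whose own median was 0.16 to 0.22. That of the 11 target genes was -0.08, 0.17, -0.07, -0.24 and -0.09. Medians over the 5 labels ran from -0.00031 to 0.16 for the kinases, 0.10 to 0.14 for the partners, -0.09 to 0.06 for the 14-3-3 genes, -0.03 to 0.09 for the activators and coactivators, and -0.04 to 0.05 for the other deacetylases.

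The genes whose level over the 18 libraries was most like each member were named by Pearson's r of log2(FPKM + 1), other members left out. Mef2d was most like Cmah (r 0.941), D2hgdh (0.931) and Acvr1b (0.930), each within 0.02 of that over the 15 libraries without the B cell rich ones. Mef2a was most like Bach1 (0.903), Tcf20 (0.891) and Trak2 (0.889). Mef2c was most like Rasgrp3 (0.976), Unc93b1 (0.959) and March1 (0.958), and over 15 libraries these were 0.883, 0.880 and 0.824. Hdac4 was most like Slc2a3 (0.905), Enpp4 (0.898) and Trmo (0.896), and Hdac5 most like H1f0 (0.848), Camk2b (0.842) and Mbd1 (0.823). Hdac7 was most like Vps4a (0.906), Prkd2 (0.839) and Sf3b1 (0.809). Hdac9 was most like Cyp4f18 (0.880), Naaa (0.864) and Fcrl5 (0.839). These libraries share groups, so the values describe shared levels across groups and libraries together. Between members, r was 0.637 for Mef2a with Mef2d, 0.629 for Hdac4 with Mef2d and -0.558 for Hdac5 with Mef2d. With the Treg marker list, r was 0.730 for Hdac7 and -0.688 for Hdac5. Other lists gave values of similar size, -0.578 for Hdac7 and 0.609 for Hdac5 with plasma cell markers, -0.571 for Hdac7 with gamma-delta T cell markers and 0.654 for Hdac5 with CD8 T and NK cell markers.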

How the data were processed

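RNA was measured in 18 libraries of sorted Treg, 6 groups of 3. Per the labels, libraries were made with NEBNext Ultra II. The submitters' processing notes name STAR, HTSeq and mm10, without versions. Strand setting and annotation release are not given in the sources used here. The deposited values were treated as FPKM. The unit is not named and was read from the values, which return whole reads after scaling by length and depth, within 0.03 of an integer. RPKM and FPKM cannot be told apart in them. Gene lengths behind the read numbers of the members were fitted. The length classes and the trend removal used exon unions, which with the positions are from GENCODE M21 on mm10. Of 35275 identifiers, 34490 had a symbol. Intervals on read numbers would cover counting error only.

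log2(FPKM + 1) was fitted in limma 3.58.1 (R 4.3.3) with 1 mean per group over 18 libraries (12 residual degrees of freedom), a variance trend, and the 12223 genes that reached 1 FPKM in 3 or more libraries. P-values are Benjamini-Hochberg adjusted over those 12223 genes, and calls are at 0.05. The fit was tested on simulated data. Members, lists and the contrast of Dyrk1 with the other labelled groups were chosen with earlier results of these data known. All 8 members were named. Of each list up to 4 genes that passed were to be named, and else up to 2 by level, and the genes most alike were the 3 with the highest correlation. Same-numbered replicates all had r above 0.1 between deviations in 3 of 15 pairs of groups. These were wild type with HDAC2 (0.160 to 0.325), HDAC1 with HDAC2 (0.132 to 0.428) and Mef2c with Mef2d (0.310 to 0.396). Dyrk1 with HDAC1 (-0.175 to -0.0894) and Dyrk1 with HDAC2 (-0.258 to -0.0782) were negative throughout. A shared pairing of all 6 groups was therefore not shown, and the fit with the replicate number as a block is only an alternative. Others were RLE scaling, pseudocounts 0.1 and 0.5, no filter, 1 FPKM in all 18 libraries, only the groups compared, trend removal by length and GC, no variance trend, leaving out the 3 B cell rich libraries, and leaving out each replicate.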

Additional observations from a re-analysis of the deposited data

How the results depend on the processing

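Of the single values of the 7 tested genes under the alternatives, 763 kept direction and side of the threshold, 29 lost a call, 12 gained one and 29 changed sign. Member calls fell from 3 to 1 with HDAC2 under RLE scaling (1) and a fit of only the groups compared (1). Under trend removal all 3 HDAC2 calls were lost, and Hdac7 was called lower instead (-0.21, limma adjusted p 0.0302). Member calls fell from 2 to 1 with Mef2c under RLE scaling (1), trend removal (1) and 1 FPKM in all 18 libraries (1), and from 3 to 1 with Mef2d under trend removal. For Mef2c against Mef2d they rose from 0 to 1 with the B cell rich libraries left out. The F test gave 3 in place of 5 with no filter, with trend removal and without those libraries. Leaving out 1 replicate gave 0 to 0 calls with Dyrk1, 0 to 2 with HDAC1, 0 to 3 with HDAC2, 1 to 3 with Mef2c, 3 to 3 with Mef2d, 0 to 0 for Mef2c against Mef2d, 2 to 3 for Dyrk1 against the other labelled groups and 2 to 5 in the F test. The replicate block changed no member call: it gave 3 of 7 for HDAC2 against wild type (Mef2d adjusted p 0.0408 in limma) and 0 of 7 for Mef2c against Mef2d. Same-numbered replicates deviated together in only 3 of 15 pairs of groups, so this block may not describe how the libraries were paired.

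Sign changes with length and GC trends removed were Hdac9 -0.12, Hdac4 -0.15 and Mef2a -0.11 with Dyrk1, Hdac9 -4.75e-06, Hdac5 -0.0552, Hdac4 -0.0523 and Mef2a -0.0200 with HDAC1, Hdac5 -0.10 and Mef2a -0.0152 with HDAC2, Mef2a -0.0491 with Mef2c, Hdac9 -0.0820 with Mef2d and Hdac5 0.0067 for Mef2c against Mef2d. RLE scaling gave Hdac5 -0.0034 with HDAC2. With the B cell rich libraries left out, Hdac9 was -0.23 with Dyrk1 and Mef2c -0.30 for Dyrk1 against the others. Leaving out 1 replicate also changed signs, and the range over the replicates left out was as follows. For Dyrk1 against wild type it was -0.0526 (Dyrk1 3) to 0.102 for Hdac4 (-0.0239 without wild type 1), -0.0511 to 0.0309 (wild type 2) for Hdac7 (0.0195 without Dyrk1 3) and -0.226 (Dyrk1 1) to 0.229 for Hdac9. It was -0.0177 (HDAC2 2) to 0.0954 for Hdac5 with HDAC2, and -0.0762 to 0.0040 (Mef2c 2) for Hdac7 with Mef2c. For Mef2c against Mef2d it was -0.357 to 0.195 (Mef2d 1) for Mef2c and -0.153 to 0.0059 (Mef2d 1) for Hdac4. For Dyrk1 against the others it was -0.431 (Dyrk1 1) to 0.845 for Mef2c, and -0.0312 (Dyrk1 2) to 0.0394 for Hdac7 (-0.0057 without HDAC2 2, -0.0075 without Mef2c 2 and -0.00044 without Mef2d 1). The cause was not tested.

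Over all genes, a fit of only the groups compared gave 58 calls in place of 2116 with Dyrk1, 932 in place of 1533 with HDAC1, 1341 in place of 2322 with Mef2c and 246 in place of 374 for Mef2c against Mef2d. With the B cell rich libraries left out there were 1342 with Mef2c and 1474 in place of 2677 with Mef2d. Leaving out 1 replicate gave 1188 to 2595 with Dyrk1, 421 to 1713 with HDAC1, 1326 to 3282 with HDAC2, 1150 to 2428 with Mef2c, 1077 to 2812 with Mef2d, 243 to 370 for Mef2c against Mef2d, 2237 to 2712 for Dyrk1 against the others and 3564 to 5139 in the F test. The lowest count came without wild-type replicate 3 with HDAC1, HDAC2, Mef2c and Mef2d, without Dyrk1 replicate 3 with Dyrk1, and without Mef2d replicate 2 for Mef2c against Mef2d. Depth limits Mef2b most, at 0 to 6 reads per library.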
